A study of Mus musculus with 46 samples.

Results

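The question here is whether the change that loss of Lmna brings to the heart's transcripts depends on cGas. It was read from a cross of mice in which the Lmna effect was measured both without and with cGas, and the quantity described is the interaction: the log2 fold change of Lmna F/F over Lmna F/+ in cGas null hearts minus the same log2 fold change in cGas +/+ hearts. Members were all libraries of that cross, 20 of the 46 libraries of the series, and a positive value means that the F/F effect was more positive without cGas. The groups were Lmna F/F with cGas null/null (4 hearts, 2 male and 2 female), Lmna F/+ with cGas null/null (4 hearts, all male), Lmna F/F with cGas +/+ (6 hearts, 3 male and 3 female) and Lmna F/+ with cGas +/+ (6 hearts, 2 male and 4 female). In this text the cGas null/null hearts are called cGas null. Every animal of the cross carried Myh6MCM Tg/0, a tamoxifen-activated Cre recombinase driven by a promoter of cardiomyocytes, and every animal received tamoxifen in corn oil (100 µL of a 4 mg/mL solution a day for 4 days) at 6 to 8 weeks of age. Hearts were taken 2 weeks after tamoxifen. The F/+ controls therefore carry a floxed Lmna allele and active Cre as well, Lmna can be deleted in cardiomyocytes but not by this Cre in other cells, and the label null/null is given for the whole animal. RNA came from whole perfused hearts and was made into QuantSeq 3' libraries, which count a tag near the 3' end of each transcript.

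Lamins A and C, the products of Lmna, form the meshwork under the inner nuclear membrane, and nuclei that lack them can deform and rupture. cGAS, the product of Cgas, binds double-stranded DNA outside the nucleus and makes the messenger cGAMP, which activates STING. STING activates the kinase TBK1 and the transcription factor IRF3, and the resulting type I interferon switches on a large set of interferon-stimulated genes, many of which carry a DNA motif called the interferon-stimulated response element near their start. In the heart, interferon-stimulated genes, chemokines and matrix genes can be expressed by several cell types, among them cardiomyocytes, macrophages, fibroblasts and endothelial cells. In RNA from whole tissue, fewer cells of a type and less RNA per cell cannot be told apart.

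The motif is shown for 3 interferon-stimulated genes, since it is what ties their promoters to the pathway in question. Windows of 70 bases read 5' to 3' on the strand of the gene, from RefSeq on GRCm38.p6, with every match of the motif in capitals, and overlapping matches run together. The motif searched, on both strands, was GAAA, any 2 bases and GAAA again, which reads TTTC, any 2 bases and TTTC where the match lies on the other strand, and overlapping matches were allowed. Ifit1 (chr19:34640774-34640843, plus strand) encodes an RNA-binding antiviral protein, Isg15 (chr4:156200845-156200914, minus strand) a ubiquitin-like modifier, and Rsad2 (chr12:26456533-26456602, minus strand) the antiviral enzyme viperin.
Ifit1: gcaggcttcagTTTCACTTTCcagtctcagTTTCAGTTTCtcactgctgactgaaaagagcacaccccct
Isg15: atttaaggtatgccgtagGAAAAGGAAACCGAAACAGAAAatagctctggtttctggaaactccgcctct
Rsad2: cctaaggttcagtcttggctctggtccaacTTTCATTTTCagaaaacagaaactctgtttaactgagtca
The Ifit1 window holds 2 matches, the Isg15 window 3 and the Rsad2 window 1. On either strand of the 250 bases before the start, the motif was present in 11 of the 27 interferon-stimulated genes with a promoter in the table (40.7%), against 936 of all 27025 promoters (3.46%) and 348 of 10649 promoters of genes tested (3.27%). A match is a description of these letters and not evidence of binding.

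Library totals ran from 22099181 to 33993289 counts, with 19434 to 21575 genes detected and 45.9 to 58.9% of the counts from mitochondrially encoded genes, and all 20 libraries were of 1 sequencing pool. Levels are normalised CPM (counts scaled to library size with TMM factors), with the SD between libraries. Cgas, the deleted gene, averaged 0.876 ± 0.258 CPM in F/F cGas null hearts and 2.88 ± 0.765 CPM in F/F cGas +/+ hearts (n = 4 and 6, exact two-sided permutation p = 0.00952). Among F/+ hearts it averaged 0.565 ± 0.243 CPM in cGas null and 1.45 ± 0.666 CPM in cGas +/+ (n = 4 and 6, exact two-sided permutation p = 0.0286). The ranges of null and +/+ libraries did not overlap within either Lmna genotype, and no null library was at 0. Lmna averaged 22.2 ± 5.87 CPM in F/F and 23.7 ± 2.54 CPM in F/+ among cGas null hearts (n = 4 each, exact two-sided permutation p = 0.686), and 20.5 ± 4.44 CPM in F/F and 22.03 ± 3.01 CPM in F/+ among cGas +/+ hearts (n = 6 each, exact p = 0.504). A 3' tag may lie outside the deleted part, so this level checks nothing about the deletion. Cardiomyocyte markers were high in all libraries, with Myh6 between 941 and 3171 CPM in every library. Atrial markers varied from library to library: Sln, an atrial regulator of the calcium pump, ran from 0.599 to 536 CPM in F/F cGas null, 0.64 to 279 CPM in F/+ cGas null, 0.325 to 342 CPM in F/F cGas +/+ and 0.42 to 357 CPM in F/+ cGas +/+ hearts. Among F/+ cGas +/+ hearts, replicate 6 stood apart with high injury genes: it had 10.1 CPM of Timp1, 38.4 CPM of Postn and 137 CPM of Col1a1. Several of the results that rest on these genes are given with and without it.

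No gene passed the test of the interaction. Of 14812 genes tested with the edgeR quasi-likelihood test with sex as a covariate, 0 were called (0%) at an adjusted p under 0.05, and the smallest Benjamini-Hochberg adjusted p was 0.999847. At an unadjusted p under 0.05 there were 215 genes (1.45%), where 740.6 would be expected if p-values were even. DESeq2 also called 0, with 231 genes under an unadjusted p of 0.05, and limma-voom called 0, with 816. Among male libraries alone 0 were called, with 319 under an unadjusted p of 0.05. An exception was the fit without a filter on low counts, which called 23 genes, 2 higher and 21 lower. All 23 were among the 14812 genes of the filtered fit, which called none of them, and they include Ifi202b, the atrial genes Sln, Myl7 and Myl4, the adipocyte gene Cfd and the globin gene Hba-a2, whose levels varied widely within groups.

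How large a difference could have been missed follows from the intervals. The 95% interval of the interaction reached a median of 0.68 log2 units to either side, and for 8817 genes (59.5%) the whole interval lay within 1 log2 unit of 0, that is, a difference between the 2 Lmna effects of 2-fold either way lay outside it. The share was 91.0% of the 4337 genes averaging 10 to 100 CPM and 81.5% of the 611 genes at 100 CPM or more. It was 63.5% of 6803 genes at 1 to 10 CPM and 1.67% of 3061 genes under 1 CPM. The whole interval lay within 1 log2 unit of 0 for 14 of 39 interferon-stimulated genes and 3 of 25 cytokine genes. For the others the interval reached past 1 log2 unit in at least 1 direction, so it held differences of more than 2-fold. These intervals are per gene and not adjusted over the genes tested.

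The largest interactions by p are given as genes that did not pass. The 8 of smallest p in the positive direction lay between 0.63 and 1.54 log2 units, with unadjusted p from 0.00642 to 0.0102. They were Shisa4, Adamts6, Dixdc1, Gm43597, Prmt2, 2310020H05Rik, Dusp23 and Chfr. Shisa4, which encodes a small transmembrane protein, was at 2.48, 2.87, 2.84 and 2.87 CPM in F/F cGas null hearts, against 0.96, 1.26, 1.51 and 1.03 CPM in F/+ cGas null hearts. In cGas +/+ it ranged from 1.04 to 2.33 CPM (median 1.83) in F/F hearts, against 0.946 to 2.66 CPM (median 1.52) in F/+ hearts. F/F and F/+ did not overlap without cGas and overlapped with it, and the interaction was 1.18 ± 0.39 log2 units (SE, edgeR adjusted p = 1.00). Adamts6, a secreted metalloprotease, was at 1.68, 2.26, 1.93 and 1.86 CPM in F/F cGas null hearts, against 0.869, 1.34, 1.21 and 0.959 CPM in F/+ cGas null hearts. In hearts with cGas it was at 1.12 to 1.97 CPM (median 1.54) in F/F and 1.16 to 2.06 CPM (median 1.78) in F/+ hearts, an interaction of 0.95 ± 0.32.

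In the negative direction the 8 genes of smallest p were Gm4803, Fam8a1, Mgst1, Ifi202b, Dock11, Slc5a3, Ap4e1 and Ret, with unadjusted p from 0.00242 to 0.0124. Mgst1, a microsomal glutathione transferase, was at 26.4, 17.4, 20.5 and 19.3 CPM in F/F cGas null hearts, against 36.6, 27.9, 26.6 and 27.7 CPM in F/+ cGas null hearts. In cGas +/+ hearts its range was 24.8 to 48.4 CPM (median 34.6) in F/F, against 19.5 to 30.6 CPM (median 25.1) in F/+. Its interaction was -0.81 ± 0.27. Fam8a1, a membrane protein that binds the ubiquitin ligase of endoplasmic reticulum quality control, differed by less, at -0.56 ± 0.18. Ifi202b, an interferon-inducible gene known to differ between mouse strains, had a wide spread. It was at 0, 5.59, 0.0412 and 7.77 CPM in F/F cGas null hearts and at 0.0914, 3.17, 5.64 and 2.88 CPM in F/+ cGas null hearts. In cGas +/+ it was at 0 to 15.5 CPM (median 4.09) in F/F and at 0 to 0.0492 CPM in F/+ hearts. In the other 3 groups, libraries were thus either near 0 or at several CPM. The interaction of -7.42 had an SE of 2.43 log2 units, and with F/+ cGas +/+ hearts at or near 0 the fitted value depends on the prior count. The labels used here give no strain background, and its part in this value was not tested.

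**Figure D1:**
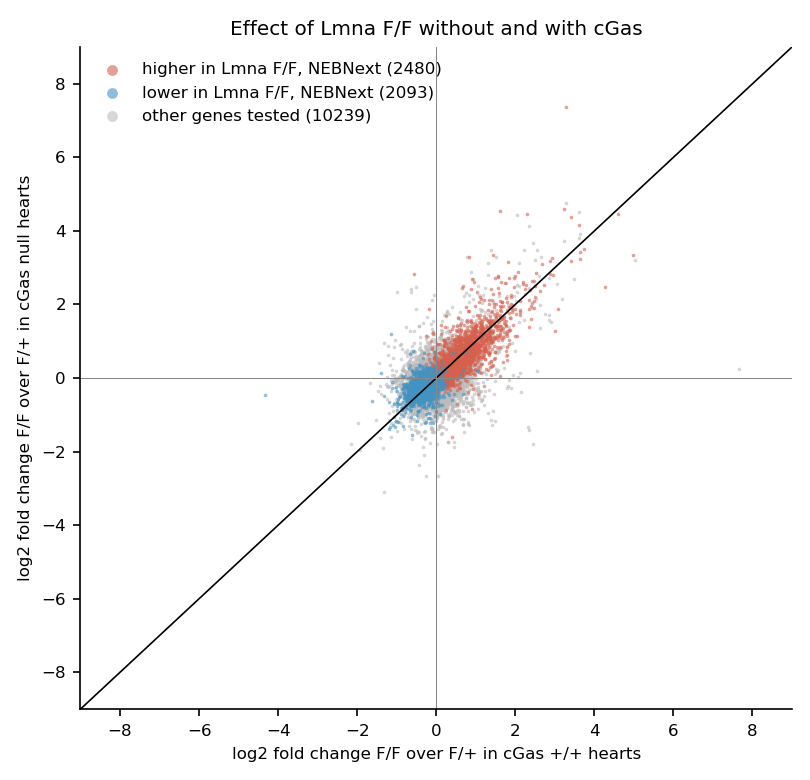
Log2 fold change of Lmna F/F over F/+ in cGas null hearts (vertical) against that in cGas +/+ hearts (horizontal), 1 point for each of 14812 genes, with the line of equal effects. Genes higher (2480) or lower (2093) in Lmna F/F in the separate NEBNext libraries are coloured. Among the higher ones the effects correlated at a Pearson r of 0.79, while some genes, such as Ifi202b, lie far from the line.

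Set side by side, the Lmna effects had much in common. Without cGas 78 genes were called (0.527%), 74 higher in F/F (0.5%) and 4 lower (0.027%). With cGas 686 genes were called (4.63%), 554 higher (3.74%) and 132 lower (0.891%). At an unadjusted p under 0.05 there were 1036 higher (6.99%) and 492 lower (3.32%) genes without cGas. The groups differ in size, 4 against 4 hearts without cGas and 6 against 6 with it, so the counts are not comparable as sizes of effect. Both counts also hung on single libraries. The count without cGas was 11, 39, 175 and 8 without F/F cGas null replicates 1, 2, 3 and 4, and 18, 7 and 12 without F/+ cGas null replicates 2, 3 and 4. It was 50 and 191 without F/F cGas +/+ replicates 3 and 4, and 142 and 119 without F/+ cGas +/+ replicates 3 and 6. The count with cGas was 387, 427, 1169 and 347 without F/F cGas +/+ replicates 1, 2, 4 and 5, and 190 and 201 without F/+ cGas +/+ replicates 1 and 3. Of the 78 genes called without cGas, 6 were called with every library left out in turn: the chemokines Ccl2 and Ccl7, the interleukin-1 receptor antagonist Il1rn, the matrix protein Spp1, the matrix protease Mmp12 and the heme oxygenase Hmox1. Il1rn, Mmp12 and Hmox1 were named after their values were seen. Of the 78 genes, 71 were also called in the same direction with cGas, which is 91.0% of the shorter list and 10.3% of the longer one. The 4 genes lower without cGas were Olfr1396, Apln, A530016L24Rik and Nmnat3, named after their values were seen, and all 4 were lower with cGas too. Apln encodes apelin, a peptide of endothelial cells that acts on heart contraction, and its log2 fold change was -1.33 ± 0.30 without and -1.16 ± 0.24 with cGas (edgeR adjusted p = 0.0442 and 0.00586), and the call without cGas held in 9 of 20 fits that left out a library. Across all 14812 genes the effects had a Pearson correlation of 0.65 and a Spearman correlation of 0.54. Points of each axis share libraries and the axes share a sex term, so this is a description.

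The 7 genes called without cGas only were 2900060B14Rik, Ccl22, Slc35e4, Dock2, BC147527, Mafa and Gm24616, again named after their values were seen. Mafa, a transcription factor best known from pancreatic beta cells, had a log2 fold change of 2.26 ± 0.48 without and -0.06 ± 0.34 with cGas. Its interaction was 2.32 ± 0.59 with an unadjusted p of 0.000719 and an edgeR adjusted p of 1.00. For Ccl22, a chemokine that attracts regulatory T cells, the log2 fold changes were 4.45 without and 2.29 with cGas. None of the 7 passed the test of the difference, so their effects are not shown to differ between the cGas genotypes.

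A list of genes chosen outside this cross gives a view that does not depend on which genes were called in it. In 12 NEBNext libraries of 2 weeks after tamoxifen (5 Lmna F/F and 7 Lmna +/+ hearts, all Myh6MCM Tg/0), which share no library with the cross, 2593 of 14038 genes were higher in F/F (18.5%) and 2170 were lower (15.5%). The labels of these libraries name no cGas genotype, and their controls were Lmna +/+ and not F/+. A list chosen there may leave out genes that change only without cGas. Of the higher genes, 2480 were tested in the cross. Their median log2 fold change was 0.40 without and 0.45 with cGas, and their median interaction was -0.06, against -0.01 over all genes tested. Of the lower genes, 2093 were tested, with medians of -0.24 without and -0.30 with cGas and a median interaction of 0.06. For the 1065 higher genes past 1 log2 unit in the NEBNext libraries the medians were 0.83 without and 0.86 with cGas, with a median interaction of -0.04. Fits that treat sex otherwise moved these values, as given below. Among higher genes the effects correlated at a Pearson r of 0.79, and among lower genes at 0.31, in each case over genes and without a test.

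The sexes were not balanced between the groups. All 4 F/+ cGas null hearts were male. Within males (2 F/F and 4 F/+ without cGas, 3 F/F and 2 F/+ with it), the higher NEBNext genes had a median log2 fold change of 0.51 without and 0.72 with cGas and a median interaction of -0.23, against -0.04 over all 14716 of these genes tested. For the lower genes the medians were -0.31 without and -0.48 with cGas, with a median interaction of 0.18. The 1065 higher genes past 1 log2 unit had medians of 1.02 without and 1.36 with cGas among males, with a median interaction of -0.36. With both sexes and a sex by Lmna term in the fit, their median interaction was -0.46. Interactions were below 0 at 1873 of 2480 higher genes among males, against 1447 of 2480 with both sexes. Over all genes they were below 0 at 7980 of 14716 among males and 7561 of 14812 with both sexes. The fit of males has fewer and different libraries, and the cause of these shifts was not tested. No single gene passed the test among males. No F/+ cGas null heart was female, so the interaction within females could not be fitted.

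The genes with the largest responses in the NEBNext libraries were higher in F/F hearts in both cGas genotypes, and most passed the test. The rule took 12 genes: Timp1, Serpina3n, Ccl7, Lgals3, Ccl2, Ccl8, Ccr2, Ccl12, Prg4, Cd52, Postn and Mt2. Their log2 fold changes in the cross ran from 1.58 to 4.15 without and from 1.62 to 3.64 with cGas. The test was passed by 7 of 12 without cGas and 11 of 12 with it, where 0.5% and 3.74% of all genes were called higher. Timp1, an inhibitor of matrix metalloproteases, was at 38.3, 20.8, 6.38 and 83.7 CPM in F/F cGas null hearts, against 3.06, 2.18, 2.07 and 2.88 CPM in F/+ cGas null hearts. In cGas +/+ it was at 24.4 to 134 CPM (median 34.6) in F/F, against 1.28 to 10.1 CPM (median 2.60) in F/+ hearts. Every F/F heart was above every F/+ heart without cGas, and likewise with cGas. The call without cGas held in 18 of 20 fits that left out a library, with an adjusted p of 0.0603 without F/F cGas null replicate 4. The log2 fold change was 4.15 ± 0.69 without and 3.62 ± 0.57 with cGas (edgeR adjusted p = 0.00742 and 0.000995). The interaction was 0.53 ± 0.88, with a 95% interval of -1.30 to 2.36, and -0.17 without F/+ cGas +/+ replicate 6. Over the 12 genes the interaction ran from -0.22 to 0.53 with SEs of 0.51 to 0.98, and 4 of 12 lay below 0 (51.0% of all genes did). Without F/+ cGas +/+ replicate 6 it ran from -0.60 for Prg4 to 0.32 for Ccl12. Among males all 12 lay below 0, from -1.73 to -0.50, where 7980 of 14716 genes did.

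**Figure D2:**
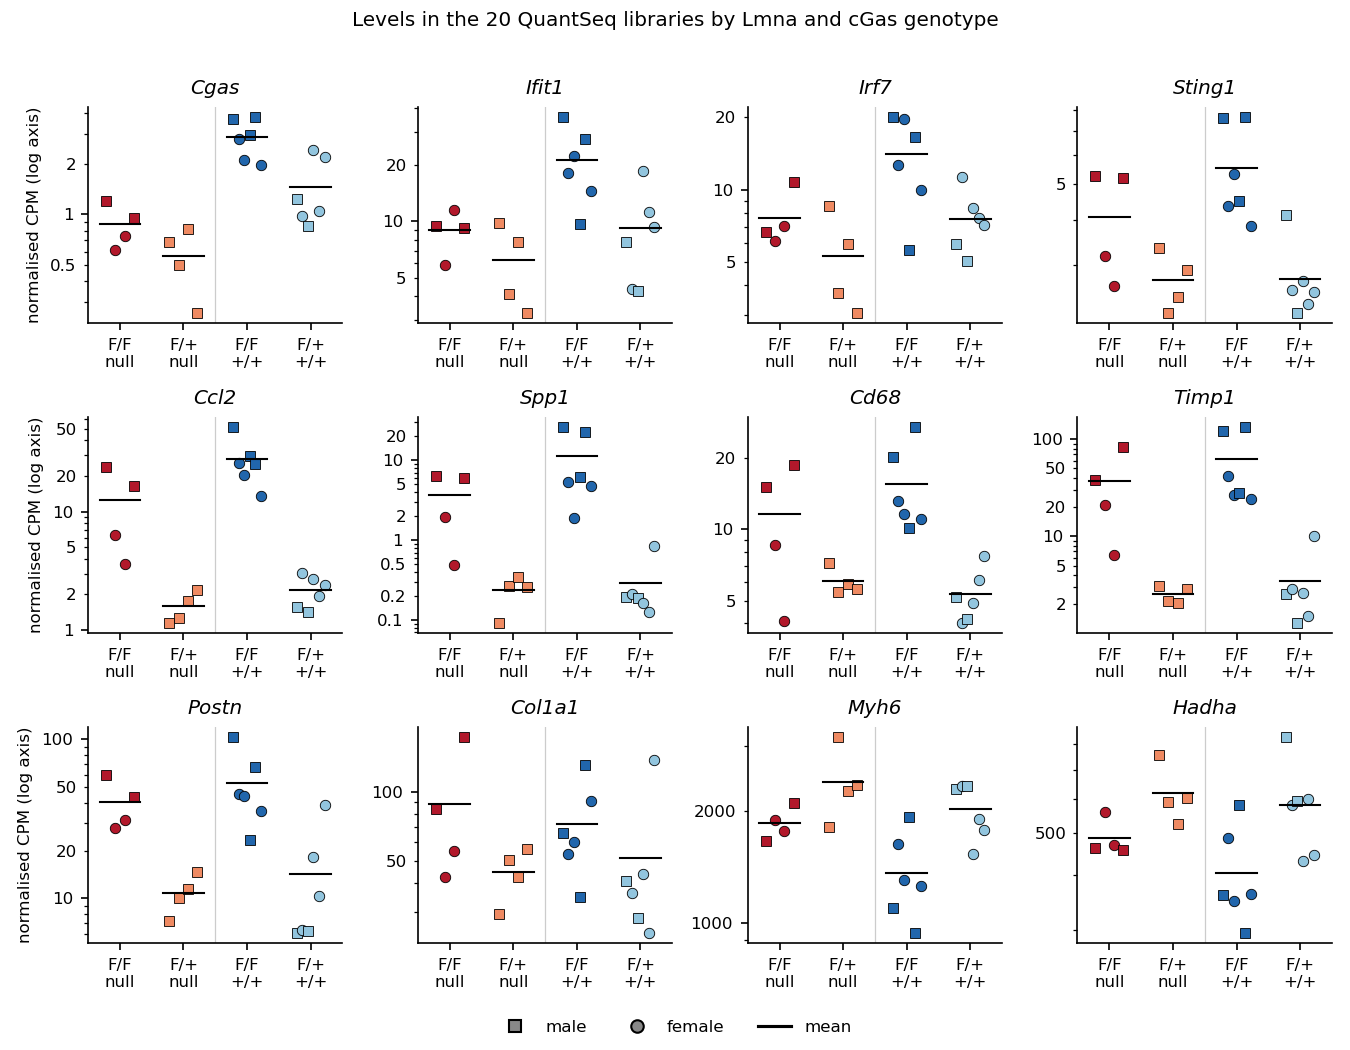
Normalised CPM on log axes of 12 genes in each of the 20 libraries, by Lmna and cGas genotype (squares male, circles female, bars the group means). For Ccl2 and Timp1 every F/F heart lies above every F/+ heart of the same cGas genotype, while the ranges overlap for Ifit1 and Irf7.

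Interferon-stimulated genes were the group closest to the question. Of the 40 listed, 39 passed the filter and none was called in the interaction. None was called in the Lmna effect without cGas, where 0.5% of all genes rose. With cGas 4 rose (against 3.74% of all genes), Ifi27l2a, Lgals3bp, Zbp1 and Ifi204, which were named after their values were seen. That count was 0 without F/+ cGas +/+ replicate 1 and 16 without F/F cGas +/+ replicate 4, fits that called 190 and 1169 genes in all with cGas. At an unadjusted p under 0.05, 10 of 39 were higher without cGas (25.6%, against 6.99% of all genes). The median log2 fold change of the list was 0.51 without and 0.64 with cGas, and the median interaction -0.17, with 27 of 39 below 0 (69.2%, against 51.0% of all genes). Leaving out 1 library gave -0.30 (without F/+ cGas null replicate 4) to 0.04 (without F/+ cGas null replicate 1), and the sign also turned without F/+ cGas +/+ replicate 3. Ifit1 was at 9.47, 5.88, 11.5 and 9.24 CPM in F/F cGas null hearts, against 9.78, 4.09, 7.80 and 3.24 CPM in F/+ cGas null hearts. In the +/+ hearts it was at 9.64 to 36.1 CPM (median 20.2) in F/F, against 4.25 to 18.5 CPM (median 8.58) in F/+ hearts. F/F hearts overlapped F/+ hearts in both cGas genotypes, and F/F hearts with cGas had the highest values. Its log2 fold change was 0.51 ± 0.45 without and 1.22 ± 0.36 with cGas (edgeR adjusted p = 0.80 and 0.053), and its interaction was -0.71 ± 0.61 (95% interval -1.97 to 0.54). Isg15 was at 9.51, 9.89, 14.5 and 10.5 CPM in F/F cGas null hearts, against 13.4, 5.31, 9.18 and 3.80 CPM in F/+ cGas null hearts. Where cGas was present it was at 11.7 to 33.3 CPM (median 23.01) in F/F and 8.61 to 22.4 CPM (median 10.6) in F/+ hearts, and its interaction was -0.24 ± 0.51. Irf7, a transcription factor that amplifies interferon, had an interaction of -0.42 ± 0.47. Rsad2, named for its promoter above, had a log2 fold change of 0.02 ± 0.17 without and 0.35 ± 0.14 with cGas, and an interaction of -0.32 ± 0.23. Among males the list's median was 0.58 without and 1.03 with cGas, and the median interaction -0.44, with 33 of 39 below 0 and none called.

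With both sexes, genes of the sensing pathway itself had medians close together in the 2 cGas genotypes. Of 18 genes of DNA sensing tested, 0 were called without cGas and 5 with it, all higher (0.5% and 3.74% of all genes were). The 5 were Sting1, Ifi204, Ifi211, Enpp1 and Zbp1, all but Sting1 named after their values were seen. The 5 became 2 without F/+ cGas +/+ replicate 1. The list's median was 0.43 without and 0.42 with cGas, with a median interaction of -0.07. Its sign turned without F/+ cGas null replicate 1 (0.04) and without F/+ cGas +/+ replicate 3. Among males the list's median was 0.47 without and 0.58 with cGas and the median interaction -0.25, with 14 of 18 below 0. Sting1, which encodes STING, was at 5.27, 3.19, 2.63 and 5.21 CPM in F/F cGas null hearts, against 3.34, 2.22, 2.46 and 2.91 CPM in F/+ cGas null hearts. With cGas it was at 3.83 to 7.65 CPM (median 4.92) in F/F, against 2.22 to 4.13 CPM (median 2.54) in F/+ hearts. The interaction of Sting1 was -0.09 ± 0.29 (95% interval -0.70 to 0.52). Tbk1, its kinase, and Irf3, the factor the kinase activates, had interactions of 0.01 ± 0.24 and -0.09 ± 0.23. Cgas itself had a log2 fold change of 0.74 ± 0.40 in cGas null and 0.91 ± 0.29 in cGas +/+ hearts and passed in neither. The 24 genes of interferon gamma and antigen presentation had medians of 0.36 without and 0.41 with cGas. Of them 0 and 1 were called higher, where 0.5% and 3.74% of all genes were. The 1 gene was the chemokine Cxcl10, named after its values were seen. The median interaction of these 24 genes was 0.04, and -0.06 (without F/F cGas null replicate 4) to 0.17 (without F/+ cGas +/+ replicate 3) with a library left out. In males their medians were 0.57 without and 0.80 with cGas, and the median interaction was -0.22, with 15 of 24 below 0.

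Among the lists of more than 10 genes, cytokines and chemokines had the largest medians. Of 25 tested, 6 rose without cGas and 15 with it, against backgrounds of 0.5% and 3.74% of all genes, and none was called in the interaction. Leaving out 1 library gave 3 (without F/F cGas null replicate 1) to 10 (without F/+ cGas +/+ replicate 3) without cGas, and 8 (without F/+ cGas +/+ replicate 1) to 16 with it. The median log2 fold change was 1.67 without and 1.72 with cGas, with a median interaction of 0.01 and 12 of 25 below 0, and leaving out 1 library moved that interaction between -0.28 (without F/F cGas null replicate 1) and 0.24 (without F/+ cGas +/+ replicate 1). Ccl2, the chemokine that recruits monocytes through Ccr2, was at 23.9, 6.34, 3.62 and 16.5 CPM in F/F cGas null hearts, against 1.14, 1.26, 1.77 and 2.18 CPM in F/+ cGas null hearts. In hearts with cGas it was at 13.5 to 52.0 CPM (median 25.6) in F/F, against 1.42 to 3.03 CPM (median 2.17) in F/+ hearts. F/F and F/+ hearts did not overlap in either cGas genotype. The log2 fold change was 3.18 ± 0.42 without and 3.40 ± 0.35 with cGas (edgeR adjusted p = 0.00213 and 1.73e-05), and the interaction was -0.22 ± 0.55 (95% interval -1.36 to 0.91). Cxcl2, a chemokine for neutrophils named after its values were seen, had a log2 fold change of 3.29 ± 0.59 without and 1.51 ± 0.41 with cGas. Its interaction of 1.77 ± 0.74 had an unadjusted p of 0.0253 and an edgeR adjusted p of 1.00. Il1b, the inflammasome's cytokine, had an interaction of -0.46 ± 0.71. Il6, a cytokine of the acute phase response, had one of 1.80 ± 1.44, and of -0.43 without F/+ cGas +/+ replicate 6. Among males the list's median interaction was -0.60, with 22 of 25 below 0. The 17 NF-kB targets, genes of the other arm that STING can switch on, had medians of 0.71 without and 0.62 with cGas. Of them 1 and 3 were called higher (0.5% and 3.74% of all genes were), and the median interaction was -0.07. That interaction was -0.57 among males, and -0.22 (without F/+ cGas +/+ replicate 4) to 0.17 (without F/+ cGas +/+ replicate 3) with a library left out.

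Markers of macrophages and monocytes moved beside these genes, with median log2 fold changes of 1.12 without and 1.15 with cGas. Of 25 tested, 4 rose without cGas (Lgals3, Ccr2, Ctss and Cd14) and 20 with it, against 0.5% and 3.74% of all genes. Without cGas 24 of 25 lay above 0 and with cGas all 25, against 47.6% and 48.6% of all genes. Leaving out 1 library gave 0 (without F/F cGas null replicate 1) to 10 (without F/F cGas null replicate 3) without cGas, and 14 (without F/+ cGas +/+ replicate 1) to 23 with it. The summed level of the list was 388 to 840 CPM in F/F cGas null, 312 to 435 CPM in F/+ cGas null, 587 to 1330 CPM in F/F cGas +/+ and 311 to 448 CPM in F/+ cGas +/+ hearts, and no member was at 0 throughout a group. The part of these cells in the cytokine and interferon results was not tested. Cd68, a lysosomal protein of macrophages, was at 15.1, 8.56, 4.12 and 18.7 CPM in F/F cGas null hearts, against 7.22, 5.43, 5.90 and 5.60 CPM in F/+ cGas null hearts. In cGas +/+ it was at 10.1 to 27.2 CPM (median 12.4) in F/F and at 4.01 to 7.71 CPM (median 5.02) in F/+ hearts. Both male F/F cGas null hearts (replicates 1 and 4) were above both female ones (replicates 2 and 3), and female replicate 3 lay below every F/+ heart of that genotype. The interaction of Cd68 was -0.22 ± 0.43. Over the list the median interaction was -0.10, with 18 of 25 below 0, and -0.25 (without F/F cGas null replicate 4) to 0.13 (without F/+ cGas +/+ replicate 3) with a library left out. Among males it was -0.44, with 23 of 25 below 0. The 5 neutrophil markers tested had a median interaction of -0.45. It was -2.10 among males, 0.02 with atrial marker level as a covariate (a fit added after seeing the data), and -1.16 (without F/F cGas null replicate 4) to -0.05 (without F/+ cGas +/+ replicate 1) with a library left out. S100a8, a calcium-binding protein of neutrophils, had one of -0.45 ± 0.94. For lymphocytes 6 of 16 T and NK cell markers and 3 of 8 B cell markers passed the filter, with median interactions of 0.15 for T and NK cells and 1.00 for B cells, and none was called in the interaction. Both medians turned in males, to -0.38 for T and NK cells and -0.25 for B cells. With a library left out they were -0.17 (without F/F cGas +/+ replicate 3) to 0.67 (without F/+ cGas null replicate 1) for T and NK cells and 0.41 (without F/F cGas +/+ replicate 3) to 1.41 (without F/F cGas +/+ replicate 5) for B cells.

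**Figure D3:**
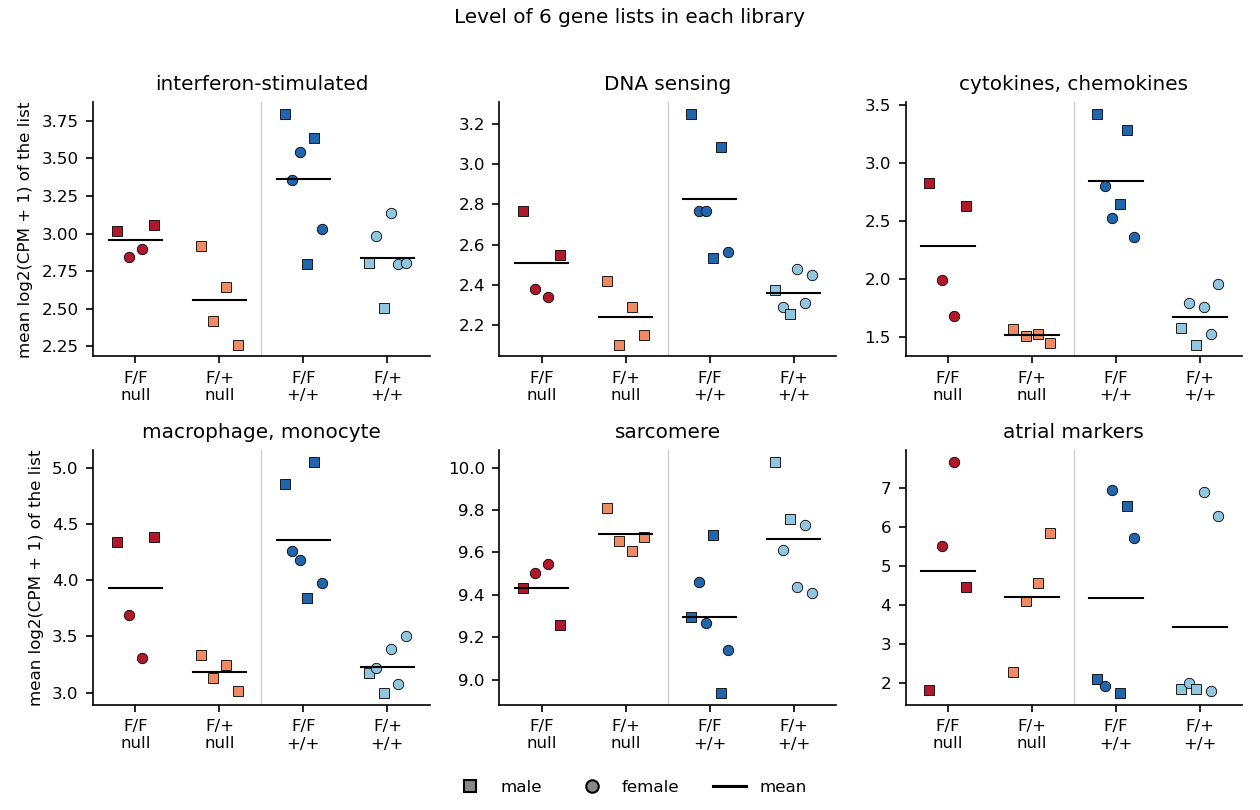
Mean of log2(CPM + 1) over the tested members of 6 gene lists in each library, by Lmna and cGas genotype (squares male, circles female, bars the group means). For the cytokine list every F/F heart lies above every F/+ heart of the same cGas genotype, and the atrial markers spread over several log2 units within each group.

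Matrix genes and genes of tissue repair were likewise higher in F/F hearts of both cGas genotypes in the median. Of 26 matricellular and TGF-beta genes, 3 rose without cGas (Spp1, Tnc and Timp1) and 10 with it, with medians of 0.64 without and 0.76 with cGas and a median interaction of -0.02. Of all genes 0.5% rose without and 3.74% with cGas. Without F/+ cGas null replicate 3 the 3 became 1, without F/+ cGas +/+ replicate 6 they became 5, and without F/+ cGas +/+ replicate 1 the 10 became 5. Among males the medians were 0.83 without and 1.28 with cGas, and the median interaction was -0.39, with 20 of 26 below 0. It was -0.56 with a sex by Lmna term, and -0.23 (without F/F cGas null replicate 4) to 0.14 (without F/+ cGas +/+ replicate 3) with a library left out. Spp1, which encodes osteopontin, was at 6.39, 1.97, 0.494 and 6.04 CPM in F/F cGas null hearts, against 0.0914, 0.268, 0.345 and 0.258 CPM in F/+ cGas null hearts. In the +/+ hearts it was at 1.93 to 26.3 CPM (median 5.75) in F/F and 0.126 to 0.857 CPM (median 0.193) in F/+ hearts. No F/F heart overlapped an F/+ heart of its cGas genotype. The log2 fold change was 4.45 ± 0.68 without and 4.59 ± 0.55 with cGas (edgeR adjusted p = 0.00428 and 6.09e-05). The interaction of Spp1 was -0.14 ± 1.00, and -1.01 without F/+ cGas +/+ replicate 6. Tnc, the matrix protein tenascin C, had an interaction of 1.36 ± 1.03, and of 0.28 without that library. Postn, which encodes periostin of activated fibroblasts, was at 59.8, 27.6, 31.2 and 43.4 CPM in F/F cGas null hearts, against 7.18, 10.1, 11.4 and 14.6 CPM in F/+ cGas null hearts. Where cGas was present it was at 23.2 to 104 CPM (median 44.5) in F/F, against 6.05 to 38.4 CPM (median 8.34) in F/+ hearts. Its interaction was 0.05 ± 0.71, and -0.41 without replicate 6.

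Of 28 structural matrix genes, 0 were called higher without and 4 with cGas (0.5% and 3.74% of all genes were). Log2 fold changes were above 0 at 26 of 28 without and 27 of 28 with cGas (47.6% and 48.6% over all genes). The medians were 0.71 without and 0.61 with cGas. The 4 became 13 without F/+ cGas +/+ replicate 6 and 2 without F/+ cGas +/+ replicate 1. The median interaction was 0.09, -0.07 among males, and -0.31 (without F/F cGas null replicate 4) to 0.26 (without F/+ cGas +/+ replicate 3) with a library left out. It was -0.05 without F/+ cGas +/+ replicate 6. Col1a1, a chain of type I collagen, was at 83.8, 42.6, 54.9 and 173 CPM in F/F cGas null hearts, against 29.4, 50.3, 42.4 and 56.2 CPM in F/+ cGas null hearts. With cGas it was at 34.7 to 130 CPM (median 62.9) in F/F and 24.2 to 137 CPM (median 38.5) in F/+ hearts. All groups overlapped, and the interaction of 0.61 ± 0.65 became 0.11 without replicate 6. Fibroblast identity genes such as Pdgfra, a growth factor receptor, had a median interaction of -0.12 over 14 genes. Pdgfra itself had one of -0.09 ± 0.19.

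**Figure D4:**
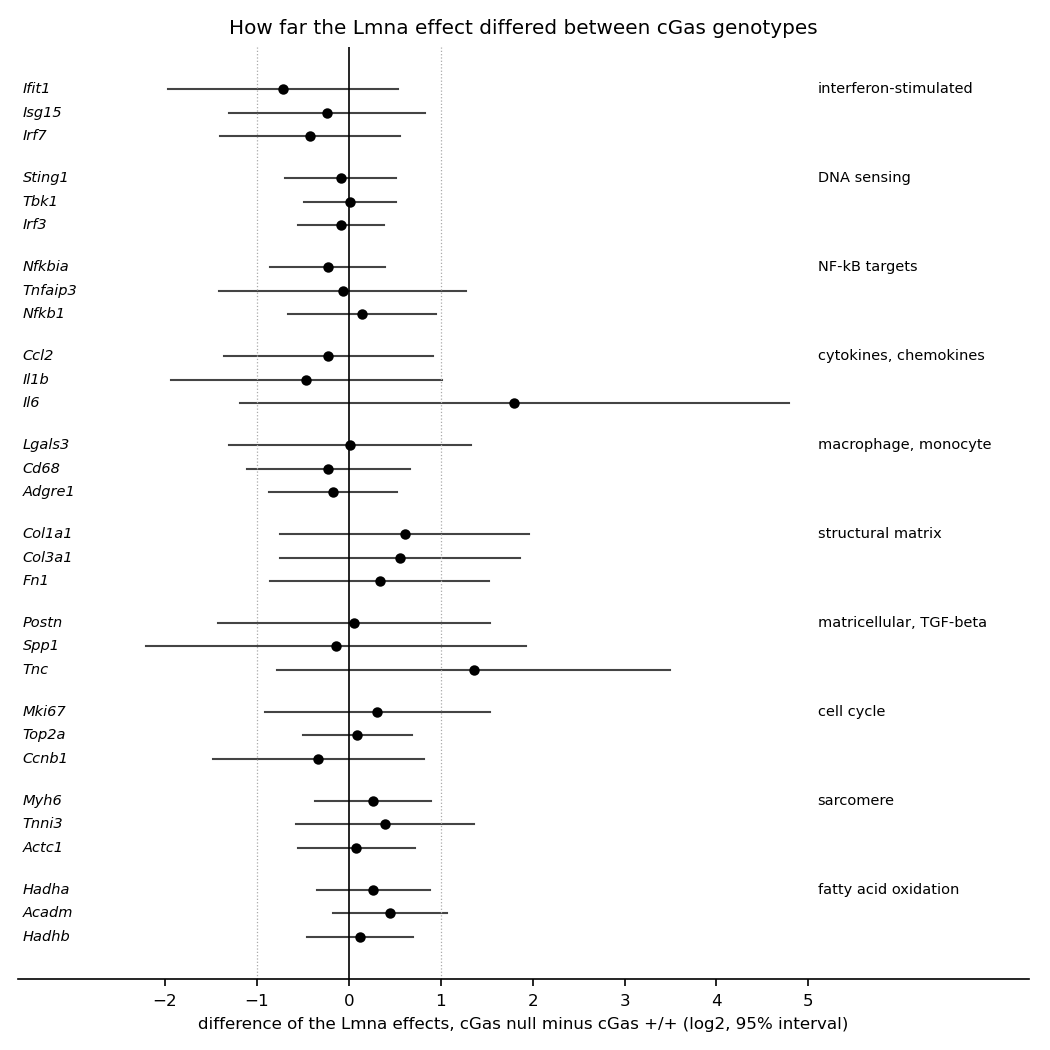
Interaction (Lmna effect without cGas minus that with cGas, log2 units) with its 95% interval for the named genes of 10 lists. All 30 intervals hold 0, and they are narrow for Tbk1 and Irf3 and widest for Il6.

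Genes of the cell cycle had median log2 fold changes of 0.94 without and 0.84 with cGas. All 28 tested lay above 0 in both cGas genotypes, against 47.6% of all genes without and 48.6% with cGas. The test was passed by 2 without cGas (Birc5 and Mcm6) and 14 with it, against 0.5% and 3.74% of all genes. Without F/F cGas null replicate 1 the 2 became 0 and without F/F cGas +/+ replicate 4 they became 6, while without F/+ cGas +/+ replicate 1 the 14 became 2. The median interaction of 0.09 was -0.18 in males, -0.33 with a sex by Lmna term, and -0.08 (without F/F cGas null replicate 1) to 0.24 (without F/+ cGas +/+ replicate 3) with a library left out. Top2a, a topoisomerase of dividing cells, had an interaction of 0.09 ± 0.29. The p53 target Cdkn1a, an inhibitor of the cell cycle, had a log2 fold change of 1.43 ± 0.38 without and 1.57 ± 0.31 with cGas and an interaction of -0.14 ± 0.50. Among 10 heat shock genes 0 rose without and 3 with cGas (0.5% and 3.74% of all genes), and the 3 became 1 without F/+ cGas +/+ replicate 1. Of the 10, 5 lay above 0 without and 6 with cGas, the medians were -0.0029 without and 0.12 with cGas, and the median interaction was -0.11, or -0.27 in males. Hspa1b, an inducible HSP70 chaperone, was at 4.79, 1.47, 0.988 and 5.55 CPM in F/F cGas null hearts, against 0.594, 1.49, 0.732 and 2.95 CPM in F/+ cGas null hearts. In hearts with cGas it was at 2.64 to 6.45 CPM (median 3.85) in F/F, against 0.256 to 0.857 CPM (median 0.576) in F/+ hearts. F/F and F/+ overlapped without cGas and did not overlap with it. The interaction was -1.25 ± 0.61 (95% interval -2.51 to 0.01, unadjusted p = 0.0517, edgeR adjusted p = 1.00). Hspa1b and Hspa1a are near-identical copies whose reads can be split between them, and Hspa1a had an interaction of -0.81 ± 0.61. Hsp90aa1, a cytosolic chaperone named after its values were seen, had a log2 fold change of -0.09 ± 0.27 without and 0.76 ± 0.21 with cGas. Its interaction of -0.85 ± 0.35 had an unadjusted p of 0.0241 and an edgeR adjusted p of 1.00.

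Genes of the working cardiomyocyte lay lower in F/F hearts by small amounts, most of which did not pass. Of 22 sarcomere genes none passed the test in either cGas genotype, 21 of 22 lay below 0 in each, and the medians were -0.21 without and -0.40 with cGas. Over all genes 47.6% without and 48.6% with cGas lay above 0. Without F/F cGas +/+ replicate 4 the sarcomere genes called with cGas were 4. Over all genes that fit called 1169 with cGas, 371 of them lower, against 686 and 132 with every library. The median interaction of the sarcomere list was 0.18, with 4 of 22 below 0 (51.0% over all genes), and 0.22 among males. With a library left out it was 0.05 (without F/+ cGas +/+ replicate 1) to 0.32 (without F/F cGas null replicate 4). Myh6, which encodes the alpha myosin heavy chain, was at 1665, 1894, 1771 and 2110.2 CPM in F/F cGas null hearts, against 1817, 3171, 2262 and 2359 CPM in F/+ cGas null hearts. In cGas +/+ hearts its range was 941 to 1927 CPM (median 1283) in F/F, against 1540.02 to 2345 CPM (median 2103) in F/+. Its interaction was 0.26 ± 0.30, with a 95% interval of -0.37 to 0.89. Of 25 fatty acid oxidation genes none passed, but 10 did with cGas once F/F cGas +/+ replicate 4 was left out, in the fit with 1169 calls. Their medians were -0.28 without and -0.44 with cGas, with a median interaction of 0.08, or 0.22 among males. Hadha, a subunit of the mitochondrial trifunctional protein, had an interaction of 0.27 ± 0.30. The 39 genes of the respiratory chain and the TCA cycle had medians of -0.30 without and -0.33 with cGas. Their median interaction was 0.02, or 0.16 among males, and its sign turned in 7 fits that left out a library. Of the 39 genes 0 were called in either cGas genotype, or 4 with cGas without F/F cGas +/+ replicate 4, again in the fit with 1169 calls. Of 27 calcium handling and ion channel genes 0 passed without and 3 with cGas, all lower (0.027% and 0.891% of all genes were). Among the 3 was Kcnip2, a subunit of a potassium channel (interaction 0.17 ± 0.31). Without F/+ cGas +/+ replicate 1 the 3 became 0, and without F/F cGas +/+ replicate 4 they became 5. For 19 cardiomyocyte stress genes the medians were 0.14 without and 0.48 with cGas, with a median interaction of -0.20. Called higher were 0 and 5 (against 0.5% and 3.74% of all genes), the 5 being 3 without F/+ cGas +/+ replicate 1. Among males the medians of this list were 0.25 without and 0.23 with cGas, and its median interaction was -0.13. Ankrd1, a stretch-responsive sarcomere protein, had an interaction of -0.42 ± 0.45.

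**Figure D5:**
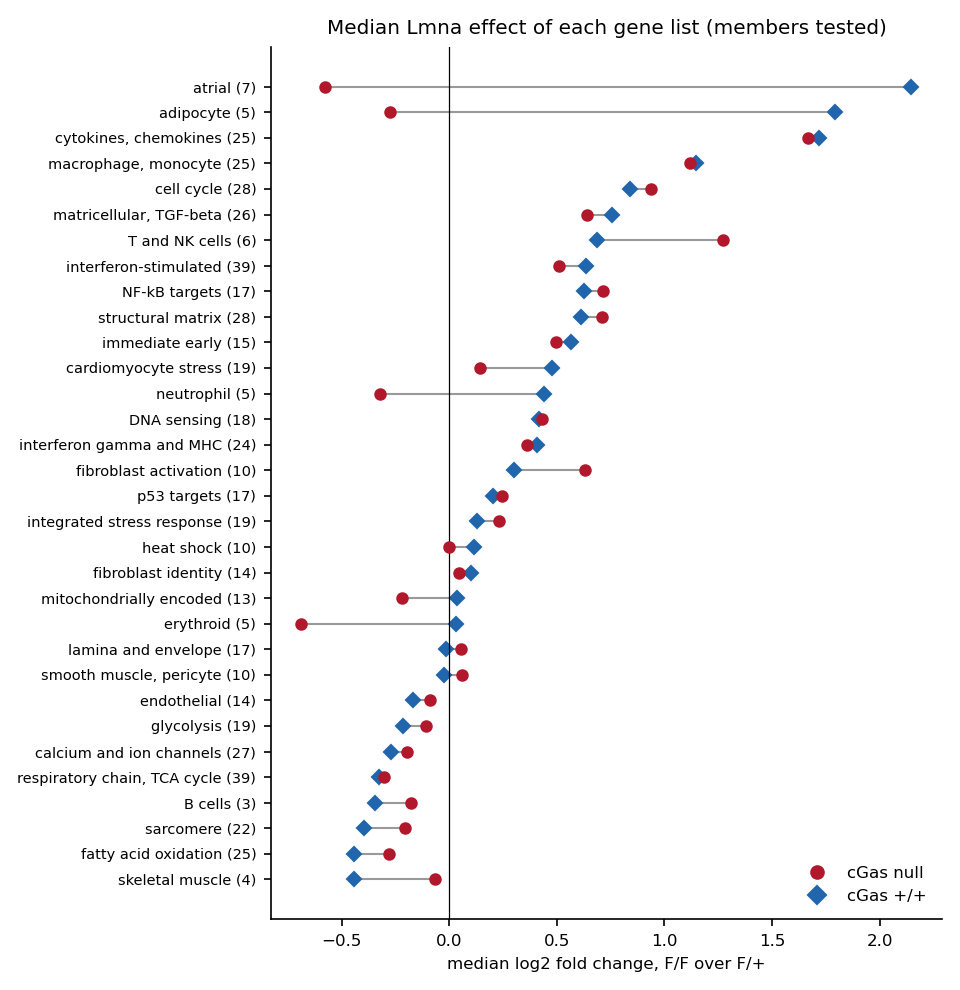
Median log2 fold change of F/F over F/+ for each of 32 gene lists, in cGas null (circles) and cGas +/+ hearts (diamonds), with the number of members tested in brackets. The medians lie close together for most large lists and far apart for the atrial and adipocyte markers.

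The lists whose medians lay furthest apart between the cGas genotypes were atrial and adipocyte markers. For 7 atrial markers the median log2 fold change was -0.58 without and 2.15 with cGas, with a median interaction of -2.54, and none was called. The value turned to 0.58 with no covariate and was -7.06 in males. It was -0.30 with atrial marker level, the mean of Sln, Myl7, Bmp10, Dkk3 and Upk3b, as a covariate. Since this covariate is built from members of the list, its own fit must shrink the value, and nothing is read from that. Leaving out 1 library gave -4.28 (without F/F cGas +/+ replicate 2) to -1.32 (without F/F cGas null replicate 1). The mean of log2(CPM + 1) over the list, with no adjustment for sex, averaged 4.88 (F/F) and 4.20 (F/+) without cGas, against 4.18 (F/F) and 3.45 (F/+) where cGas was present. Their summed level was 154 to 3962 CPM in F/F cGas null, 129 to 1572 CPM in F/+ cGas null, 156 to 2416 CPM in F/F cGas +/+ and 116 to 2305 CPM in F/+ cGas +/+ hearts, so the ranges covered each other. For 5 adipocyte markers the median interaction was -2.07, and -2.85 (without F/F cGas null replicate 4) to -0.47 (without F/+ cGas null replicate 4) with a library left out. For 5 erythroid markers it was -0.76, and -1.22 (without F/F cGas null replicate 3) to -0.28 (without F/+ cGas null replicate 1). With atrial marker level as a covariate, 0 genes were called in the interaction and the median interaction of the NEBNext genes was 0.002 for those higher and 0.02 for those lower in F/F. The interferon-stimulated list then had a median interaction of -0.14.

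Read the other way, the interaction is the difference between the effects of cGas in F/F and in F/+ hearts. cGas null minus cGas +/+ gave 0 called genes (0%) in F/F hearts, with 850 under an unadjusted p of 0.05 (5.74%), and 0 called genes (0%) in F/+ hearts, with 616 (4.16%). DESeq2 called 5 genes in F/F hearts, Mal, Gm15459, Jaml, Dixdc1 and Cgas, and 1 in F/+ hearts, Gm15459. limma-voom called 0 in both, and edgeR among males called 0 in F/F and Gm15459 in F/+ hearts. The F/F and the F/+ effect share no library with each other, but they share the sex term and the estimate of spread of the same fit. Every F/+ cGas null heart was male, so the F/+ effect leans on that term, which the other groups set. Each effect also shares libraries with the interaction and with an Lmna effect. Counts in F/F and in F/+ hearts are thus not independent. Of the 39 interferon-stimulated genes, 39 had a log2 fold change below 0 in cGas null F/F hearts and 38 in cGas null F/+ hearts, where over all 14812 genes 7358 and 7047 were below 0. The list's median was -0.46 in F/F and -0.35 in F/+ hearts, and none of its genes passed the test. Ifit1 had a log2 fold change of -1.25 ± 0.40 in F/F and -0.53 ± 0.46 in F/+ hearts, and Isg15 one of -0.97 ± 0.34 in F/F and -0.74 ± 0.38 in F/+ hearts (edgeR adjusted p of 0.85 in F/F and 0.993 in F/+ for both). The macrophage list had medians of -0.53 in F/F and -0.37 in F/+ hearts, and the cytokine list medians of -0.79 and -0.86 in the same order of genotypes. Sarcomere genes had medians of 0.13 in F/F and -0.03 in F/+ hearts. Estimates of interferon-stimulated genes thus lay lower without cGas in both Lmna genotypes by amounts that did not pass the test gene by gene. This was not particular to them: DNA sensing genes had medians of -0.31 in F/F and -0.33 in F/+ hearts. Single hearts overlapped. The interferon-stimulated list's mean of log2(CPM + 1) was 2.85 to 3.06 in F/F cGas null and 2.80 to 3.80 in F/F cGas +/+ hearts. Among F/+ hearts it was 2.26 to 2.92 in cGas null and 2.50 to 3.14 in cGas +/+.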

How the data were processed

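The series holds 46 libraries of mouse heart RNA, and 20 QuantSeq libraries carry the interaction. The authors deposited raw read counts for 55359 genes, and this table was used. The submitters' processing notes name STAR 2.7.9 and mm39. The sources used here do not give the counting tool, annotation or strand setting, and overlapping or near-identical genes may share reads. A deposited table of normalised values was not used. Columns were matched to samples by title, leaving 0 without a sample, and 0 entries name no gene.

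The quasi-likelihood test of edgeR 4.0.16 (R 4.3.3) was used, with TMM scaling. Genes had to pass filterByExpr, with 10 as the minimum count and 15 as the minimum total. P-values of 14812 genes were adjusted by Benjamini-Hochberg, with a threshold of 0.05. The 4 groups were fitted together with sex as a covariate, which left 15 residual degrees of freedom. SEs follow from the test statistic, and 95% intervals from the t distribution. The 12 NEBNext libraries of 2 weeks (5 F/F, 7 Lmna +/+; 13824002 to 25650922 counts) were fitted apart, with sex and pool. DESeq2 1.42.0, limma 3.58.1 and other settings were alternatives. The fits were tested on simulated data. List levels are means of log2(CPM + 1), with a pseudocount of 1.

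Groups follow the labels. Replicate numbers are only names and pair nothing. The 20 titles carry 20 different heart numbers, so libraries were taken as separate hearts. Of 42 pairs within groups 0 were identical, with a lowest chi-square per degree of freedom of 25.8. The members, the 32 gene lists and the tests were chosen with earlier results of these data known. Named were Lmna and Cgas, the 8 genes of smallest interaction p in each direction with at least 1 CPM on average, the 12 largest NEBNext changes with at least 10 CPM, and the first 3 tested members of each list, 120 genes in all; others are marked in the text. Promoters came from RefSeq on GRCm38.p6, and no other coordinates were used.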

Additional observations from a re-analysis of the deposited data

Results flagged for a closer look

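In 11 of 124 group checks (31 measures in 4 groups), 1 library lay further from the others than Dixon's 95% limit allows. Chance gives about 1 in 20 for independent checks of normally distributed values. These checks reuse the same hearts and mostly take CPM of single genes, so the count does not measure an excess. F/+ cGas +/+ replicate 6, a female heart, was the high one for 4 injury and matrix genes: Col1a1 at 137 CPM, Postn at 38.4 CPM, Spp1 at 0.857 CPM and Timp1 at 10.1 CPM. Without it the interaction test still called 0 genes, the Lmna effect called 119 genes without cGas and 934 with it, and the median interaction of the higher NEBNext genes was -0.10. F/+ cGas +/+ replicate 1 was high for Sting1 at 4.13 CPM. The atrial gene Sln was high at 279 CPM in F/+ cGas null replicate 4 and at 357 CPM in F/+ cGas +/+ replicate 4. Among cGas null hearts, F/F replicate 2 was high for Hadha at 560 CPM, F/+ replicate 1 was high for Mgst1 at 36.6 CPM, and F/F replicate 1 was low for Shisa4 at 2.48 CPM. F/F cGas +/+ replicate 4 had the most counts of its group, 33993289.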

How the results depend on the processing

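The interaction called 0 genes under DESeq2, limma-voom, no covariate, a sex by Lmna term, males only, no mitochondrial genes, an atrial covariate and each of 20 libraries left out in turn, and 23 without the filter on low counts. That fit estimated infinite prior degrees of freedom, so quasi-likelihood dispersions followed the common trend and not the single gene. Without the filter the Lmna effect called 515 genes without and 1183 with cGas, and the cGas effect 93 in F/F and 93 in F/+ hearts. The counts of the Lmna effect without and with cGas, 78 and 686, were 251 and 1054 by DESeq2, 174 and 1351 by limma-voom, 1 and 1246 with a sex by Lmna term, and 171 and 432 in males. Without cGas it was also 21 with no covariate and 167 with the atrial covariate. Leaving out 1 library gave 7 (without F/+ cGas null replicate 3) to 191 (without F/F cGas +/+ replicate 4) genes without cGas, and 190 (without F/+ cGas +/+ replicate 1) to 1169 (without F/F cGas +/+ replicate 4) with it. The cGas effect, 0 in each, was 5 in F/F and 1 in F/+ hearts by DESeq2 and 1 in F/+ hearts in males. The median interaction of NEBNext genes, -0.06 (higher) and 0.06 (lower), was -0.23 and 0.18 in males and -0.29 and 0.18 with a sex by Lmna term. Leaving out 1 library gave -0.12 to 0.03 for higher and 0.002 to 0.11 for lower genes. The cause of these shifts was not tested. No paired analysis was possible because replicate numbers follow sample order and pair nothing. Over 120 named genes and 28 settings, 6 of 3357 values passed, all without the filter. At under 1 CPM, intervals within 1 log2 unit were rare (1.67%), and depth and spread between hearts were not separated there.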
